A study of Ovis aries with 6 samples.

Results

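MYH9, VCL, PDLIM3, DES, FSCN1 and TM4SF1 are 6 genes of the contractile cytoskeleton, the adhesion plaque and the motile cell surface. Most of them are abundant, and they are described here in ovarian granulosa cells after a knockdown of INHBA. They are 6 of the 1620 genes in a table in which the authors had called every gene changed, and they were picked by name with the change and the level in that comparison in view. The comparison is therefore given for them as a description, with no test. Primary granulosa cells, the somatic cells that surround and nourish the oocyte, came from follicles of at least 3 mm of slaughtered, sexually mature Hu sheep (Ovis aries) and were grown in culture. The knockdown libraries (siINHBA, n = 3) received a small interfering RNA against INHBA, which encodes a subunit found in both activin A and inhibin A, and the controls (siNC, n = 3) a negative-control RNA. Both were carried by the same lipid reagent, and RNA was taken after 24 h. The labels do not say whether libraries of a group came from separate cultures or animals, or whether cells were pooled, so the spread behind each p-value is that among libraries and may be no more than technical.

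Non-muscle cells pull on their surroundings through bundles of actin filaments that slide on myosin II and end in adhesion plaques, where vinculin and its partners tie actin to integrins. PDZ-LIM proteins sit on the actin cross-linker alpha-actinin along such bundles, and desmin forms the intermediate filaments that brace contractile cells. Fascin packs parallel actin filaments into the stiff spikes of filopodia, and TM4SF1 is a surface protein with 4 membrane passes that is known from migrating human endothelial and tumour cells. In the ovary the outer theca around a follicle is contractile, and granulosa cells in culture attach to plastic and spread.

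The siRNA target was lower in the libraries labelled siINHBA. INHBA stood at 8.02, 6.51 and 7.54 FPKM (fragments scaled by the authors to transcript length and library depth) in siINHBA, against 21.2, 21.8 and 18.5 FPKM in siNC. Its log2 fold change was -1.49 (adjusted p = 3.9e-06 in edgeR) with the library depth described below, and -0.41 (adjusted p = 0.018) under TMM. With that depth all 1620 listed genes passed, so passing does not set INHBA apart. It ranked 445 among the 1065 lower genes, whose median log2 fold change was -1.40. The raw counts over the listed genes summed to 1590871 to 2042924 per siINHBA library and 2781548 to 2948524 per siNC library. Dividing count by FPKM gives the relative depth of each full library, which was 0.952 to 1.17 times that of siNC library 1 in siINHBA and 1 to 1.05 times in siNC. The fit over the whole table used this recovered depth. TMM scaling over the table, which centres it on its typical gene, moved the median log2 fold change by 1.09 upwards, and directions below that depend on this choice are named with their values.

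The 6 genes parted into 4 that were lower and 2 that were higher in siINHBA, with VCL just above 0 under TMM. In edgeR's quasi-likelihood fit all 1620 listed genes passed an adjusted p of 0.05 (100%), 65.7% of them lower and 34.3% higher, and the groups did not overlap for 99.9% of them, so passing or not overlapping says nothing about these 6. Under TMM 56.7% of the listed genes passed. The contractile and plaque genes MYH9, PDLIM3, DES and VCL stood at 3.40-fold, 2.73-fold, 3.39-fold and 2.03-fold lower mean FPKM in siINHBA. FSCN1 and TM4SF1 stood at 2.66-fold and 10.6-fold higher mean FPKM. In bulk RNA of this kind, fewer cells that express a gene and less of its RNA per cell cannot be told apart.

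**Figure D1:**
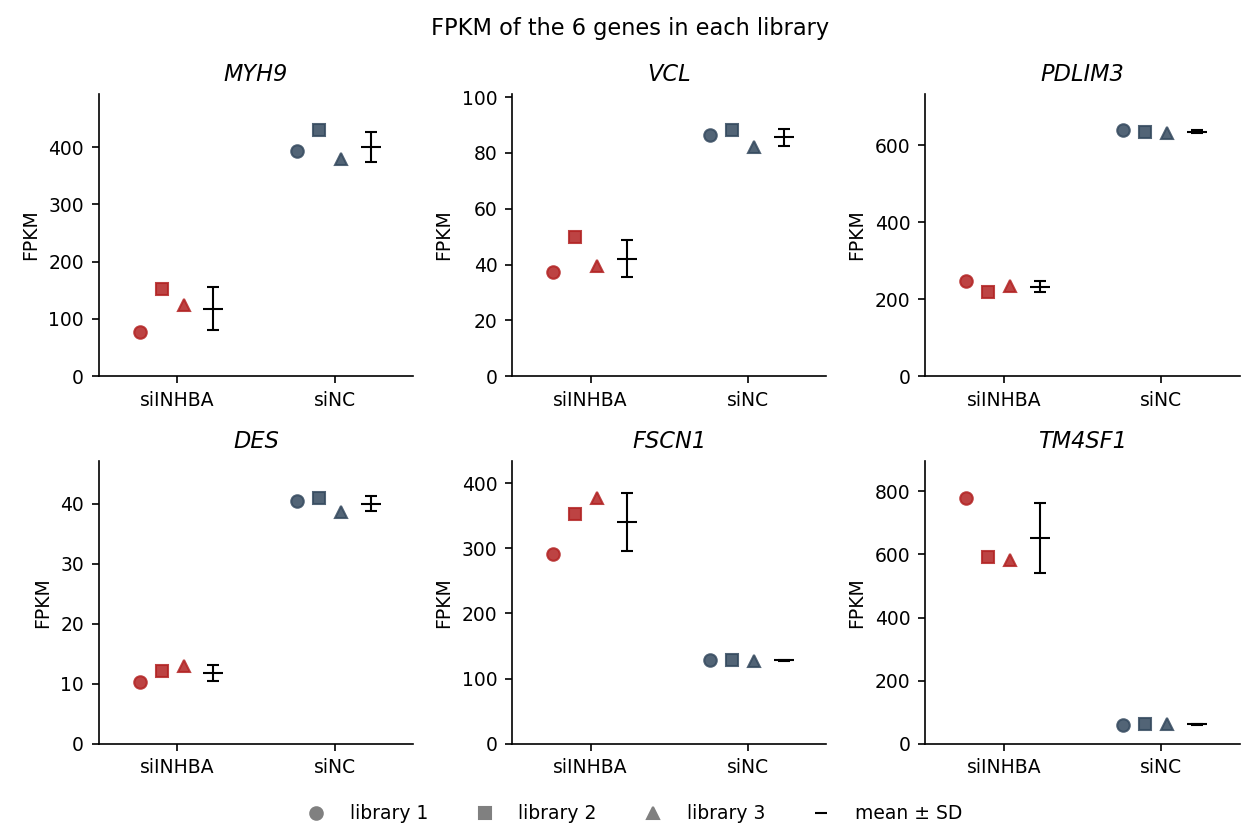
FPKM (y axis, from 0) of each gene in the 3 siINHBA (red, left) and 3 siNC (dark, right) libraries, with marker shape for the library number and black bars for the mean and SD of each group. The groups are separate in all 6 panels on the FPKM scale, MYH9, VCL, PDLIM3 and DES below siNC and FSCN1 and TM4SF1 above it, although VCL had a log2 fold change of 0.12 under TMM.

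MYH9 encodes the heavy chain of non-muscle myosin IIA, the motor of stress fibres. Its raw counts were 20189, 43325 and 40142 in siINHBA libraries 1, 2 and 3, against 108111, 121754 and 109449 in siNC. In FPKM it stood at 77.0, 151 and 124 in siINHBA, a mean of 117 ± 37.6 (SD, n = 3), against 392, 429 and 378 in siNC, a mean of 400.0 ± 26.2 (SD, n = 3). Every siINHBA library was below every siNC library, and siINHBA library 1 was the lowest by a wide margin. By FPKM MYH9 ranked 28 among the listed genes in siINHBA and 8 in siNC. By raw count, which is not scaled to transcript length, it ranked 8 in siINHBA and 2 in siNC. Its log2 fold change was -1.77 (SE 0.21), and -1.54 when siINHBA library 1 was left out.

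VCL encodes vinculin, which links talin and alpha-catenin to actin in adhesion plaques and cell junctions. The gene had 6539, 9148 and 8417 counts in siINHBA, against 15026, 16053 and 14855 in siNC. Per length it stood at 37.2, 49.8 and 39.4 FPKM in siINHBA, a mean of 42.1 ± 6.75 (SD, n = 3), against 86.4, 88.1 and 82.1 FPKM in siNC, a mean of 85.5 ± 3.06 (SD, n = 3). The groups were separate, with siINHBA library 2 the nearest to the controls. VCL had the smallest shift of the 6, at -0.97 on the log2 scale (SE 0.12). The authors' deposited table gives it a log2 fold change of -1.0, where the smallest absolute value of any listed gene is also 1.0, so VCL lies just inside the range that the table covers, and genes just outside it were not analysed here. Under TMM over the listed genes its log2 fold change was 0.12 and with DESeq2's own size factors 0.11. VCL was lower in FPKM and in the authors' deposited value. Its direction thus depends on whether the depth of the full libraries or the listed genes set the scale.

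PDLIM3 encodes a PDZ and LIM domain protein that binds alpha-actinin, best known from the Z-discs of striated muscle. It had the highest FPKM of the 6 in siNC. Counts were 15837, 15175 and 18433 in siINHBA, against 42699, 43759 and 44556 in siNC. Its level was 247, 218 and 233 FPKM in siINHBA, a mean of 233 ± 14.3 (SD, n = 3), against 638, 635 and 632 FPKM in siNC, a mean of 635 ± 3.12 (SD, n = 3). The siNC libraries were almost alike and the siINHBA libraries close to each other, far from overlap. The log2 fold change was -1.44 (SE 0.10).

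DES encodes desmin, the intermediate filament protein of muscle cells, and was the scarcest of the 6. It had 828, 1064 and 1279 counts in siINHBA, against 3403, 3551 and 3418 in siNC. In FPKM this was 10.3, 12.2 and 13.0 in siINHBA, a mean of 11.8 ± 1.35 (SD, n = 3), against 40.5, 41.0 and 38.7 in siNC. All siINHBA libraries lay far below the controls, with library 1 the lowest as in MYH9. The log2 fold change was -1.76 (SE 0.12). DES ranked 276 by FPKM among the listed genes in siINHBA and 100 in siNC, so the word abundant fits it less well than the others.

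FSCN1 encodes fascin, the actin-bundling protein of filopodia. Its counts were 27490, 36409 and 44013 in siINHBA, against 12807, 13084 and 13294 in siNC. Per length this gave 291, 353 and 378 FPKM in siINHBA, a mean of 341 ± 44.7 (SD, n = 3), against 129, 128 and 128 FPKM in siNC, a mean of 128 ± 0.747 (SD, n = 3). Even the lowest siINHBA library, library 1, was well above all controls. FSCN1 had a log2 fold change of 1.41 (SE 0.12), and 2.50 under TMM. By FPKM it ranked 6 among the listed genes in siINHBA and 28 in siNC.

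TM4SF1, the surface protein of the L6 family, differed most between the groups. It had 43023, 35696 and 39619 counts in siINHBA, against 3519, 3774 and 3727 in siNC. In FPKM it stood at 779, 593 and 582 in siINHBA, a mean of 651 ± 111 (SD, n = 3), against 60.7, 63.2 and 61.2 in siNC, a mean of 61.7 ± 1.32 (SD, n = 3). Library 1 was the highest of the siINHBA libraries here, whereas it was the lowest for MYH9, VCL, DES and FSCN1. The log2 fold change was 3.40 (SE 0.14), rank 37 among the 555 higher genes. TM4SF1 ranked 3 by FPKM in siINHBA and 68 in siNC.

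The order of the 6 genes by level changed between the groups. In siINHBA it ran from TM4SF1 through FSCN1, PDLIM3, MYH9 and VCL to DES. In siNC it ran from PDLIM3 through MYH9, FSCN1, VCL and TM4SF1 to DES. Neighbours in each order had ranges over the 3 libraries that did not overlap. The FPKM of all 6 genes together came to 1442, 1377 and 1369 in siINHBA, against 1347, 1384 and 1320 in siNC, ranges that overlap. Within that sum, MYH9, VCL, PDLIM3 and DES made up 371 to 432 FPKM in siINHBA, against 1131 to 1193 FPKM in siNC. FSCN1 and TM4SF1 made up 946 to 1070 FPKM in siINHBA and 189 to 191 FPKM in siNC.

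**Figure D2:**
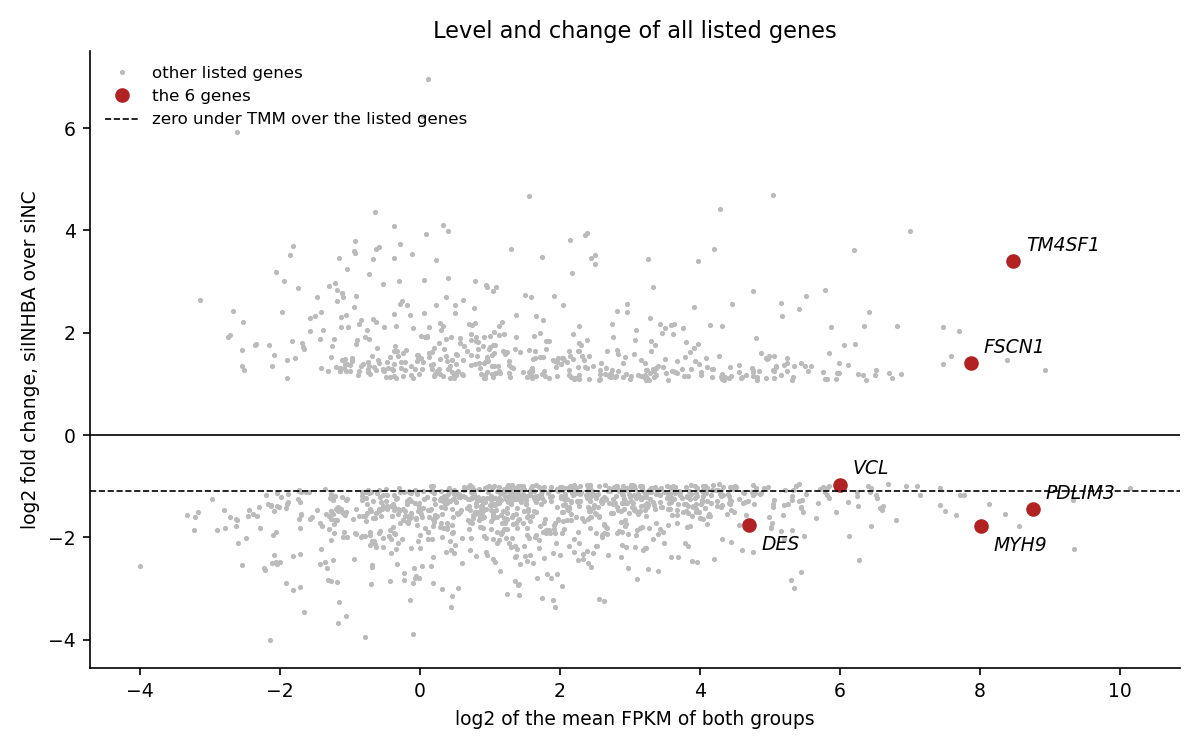
Log2 fold change of siINHBA over siNC (y axis) against the log2 mean FPKM of both groups (x axis) for the 1620 listed genes in grey, with the 6 genes in red and labelled. MYH9, PDLIM3, FSCN1 and TM4SF1 lie at the abundant end, and VCL, below the solid zero line, lies just above the dashed line that marks zero under TMM.

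Of the 1620 genes, 56 averaged at least 100 FPKM in a group, 33 of them lower and 23 higher in siINHBA with the recovered depth. MYH9, PDLIM3, FSCN1 and TM4SF1 were among these 56. The median listed gene averaged 2.14 FPKM in siINHBA and 3.21 FPKM in siNC. These abundance figures describe the table of called genes and not the whole transcriptome, which was not analysed here.

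Ratios of FPKM within a library do not depend on how libraries are scaled. The genes were picked with their change in view, and their FPKM did not overlap between the groups. A ratio of a higher gene to a lower gene therefore had to separate siINHBA from siNC. Such ratios are given for their size only, as a description. For TM4SF1 over MYH9 the ratio was 10.1, 3.91 and 4.69 in siINHBA, against 0.155, 0.147 and 0.162 in siNC. For TM4SF1 over PDLIM3 it was 3.16, 2.71 and 2.50 in siINHBA, against 0.0951, 0.0995 and 0.0969 in siNC. Both ratios lay above 1 in every siINHBA library and below 1 in every siNC library.

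FSCN1 over VCL was 7.83, 7.09 and 9.59 in siINHBA, against 1.49, 1.45 and 1.55 in siNC. FSCN1 over DES varied little within siINHBA, at 28.2, 29.0 and 29.1, against 3.19, 3.12 and 3.29 in siNC. FSCN1 and DES thus kept a nearly fixed proportion among the siINHBA libraries while both varied in level.

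The lower genes did not shift in proportion. MYH9 over VCL was 2.07, 3.04 and 3.15 in siINHBA, against 4.54, 4.87 and 4.61 in siNC, without overlap. DES over PDLIM3 was 0.0419, 0.0558 and 0.0556 in siINHBA, against 0.0634, 0.0646 and 0.0613 in siNC, also without overlap but closer. Nor did the higher genes, since TM4SF1 over FSCN1 was 2.68, 1.68 and 1.54 in siINHBA, against 0.470, 0.494 and 0.480 in siNC.

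**Figure D3:**
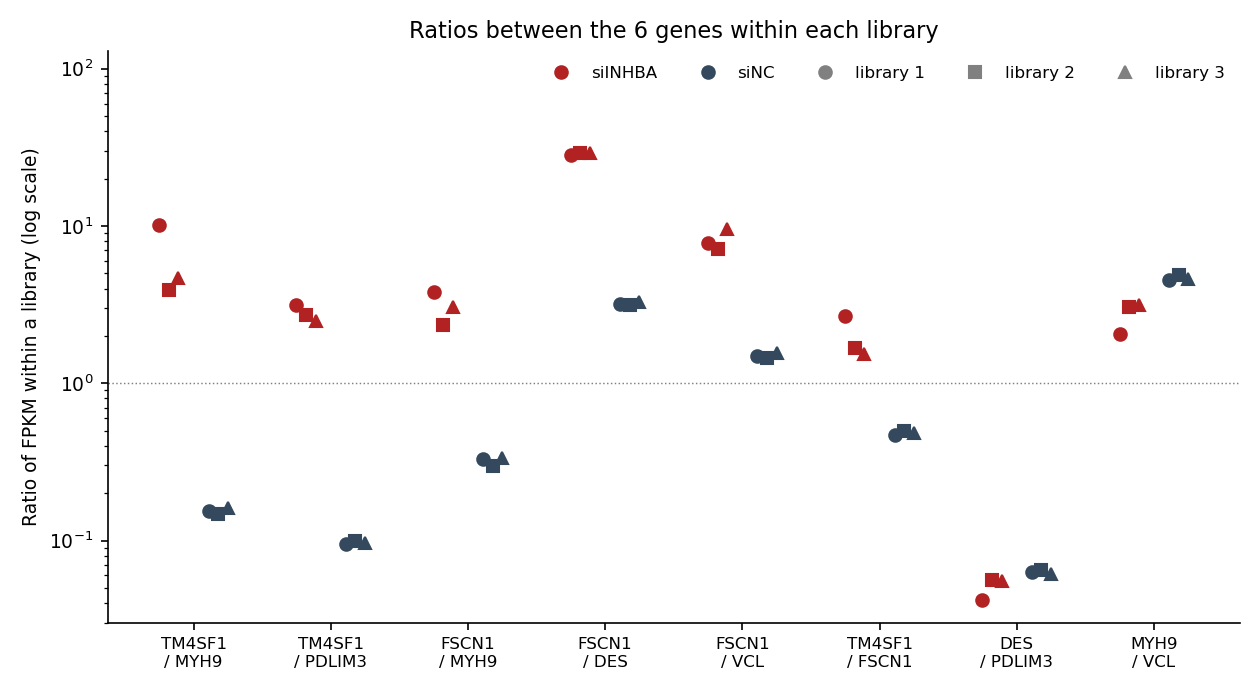
Ratio of FPKM between pairs of the 6 genes within each library (log axis), siINHBA in red left of siNC in dark, with marker shape for the library number. The ratios of TM4SF1 or FSCN1 to a contractile gene are higher in every siINHBA library than in every siNC library, which follows from the choice of the genes. The dotted line marks equal FPKM.

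The siINHBA libraries varied more than the siNC libraries for all 6 genes, as for 72.2% of the listed genes. The coefficient of variation of MYH9 was 32.0% in siINHBA and 6.55% in siNC, against medians over the listed genes of 17.4% in siINHBA and 8.81% in siNC. PDLIM3 was the steadiest, at 6.13% in siINHBA and 0.491% in siNC. For FSCN1 the values were 13.1% in siINHBA and 0.582% in siNC, and for TM4SF1 17.1% in siINHBA and 2.14% in siNC.

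The share of listed genes that were lower in siINHBA rose with the length of the transcript. The ratio of count to FPKM is proportional to the length that the authors used, and by it MYH9 was 3.28 times as long as DES and VCL 2.07 times, while FSCN1 was 1.18, PDLIM3 0.797 and TM4SF1 0.690 times as long. Listed genes with a mean of at least 200 counts were divided into 4 length classes of near equal size. In the longest class, which holds MYH9, 92.5% of 253 genes were lower in siINHBA, and in the class with VCL 76.2% of 252. In the class of DES and FSCN1 67.1% of 252 genes were lower, and in the shortest, with PDLIM3 and TM4SF1, 47.0% of 253.

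Within siINHBA, library 1 differed from the mean of libraries 2 and 3 by a median of -0.13 on the log2 scale in the longest class and of 0.15 in the shortest. MYH9 differed by -0.83 and TM4SF1 by 0.41, both further than the median of their classes. PDLIM3, at 0.13, was near the median of its class. VCL, DES and FSCN1, at -0.25, -0.28 and -0.33, were below class medians of 0.03 each. PDLIM3 is lower and TM4SF1 higher in siINHBA at similar length. The part of transcript length in the differences between siINHBA and siNC was not tested.

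**Figure D4:**
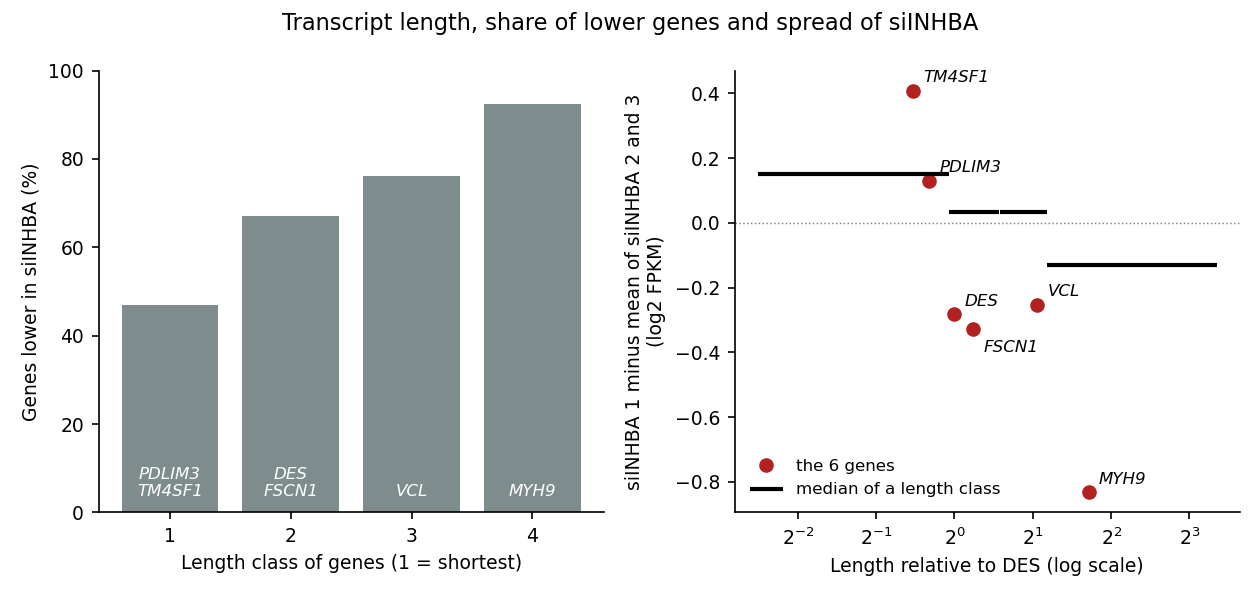
Left, percentage of listed genes (mean count of at least 200) that were lower in siINHBA with the recovered depth, by class of transcript length, with the 6 genes written in theirs. Right, log2 FPKM of siINHBA library 1 minus the mean of libraries 2 and 3 for the 6 genes (red) against length relative to DES (log axis), with black lines for the median of each length class; MYH9 lies lowest and TM4SF1 highest.

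The other genes of the same machinery were read from 7 lists of 208 genes on actomyosin, adhesion plaques, PDZ-LIM and cross-linking proteins, actin bundling and protrusion, intermediate filaments, TM4SF and tetraspanin proteins, and SRF and YAP factors. Beside the 6 genes, 19 of these genes were in the table. Of the 19, 17 passed as lower and 2 as higher with edgeR and the recovered depth (89.5% lower, against 65.7% of all listed genes). Their median log2 fold change was -1.31, against -1.16 over all listed genes. Under TMM 6 of the 19 passed as lower and 2 as higher, where 22.5% and 34.3% of all listed genes did so, and their median was -0.22. List genes outside the table, among them the widely used contractile genes ACTA2, TAGLN, MYL9 and CNN1, carry no value here. The list genes were not matched to other listed genes for transcript length. The share of lower genes ran from 47.0% in the shortest to 92.5% in the longest length class.

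Of the actomyosin list, 3 of the 31 genes other than MYH9 were in the table. All 3 were lower with the recovered depth, where 65.7% of all listed genes were. Passing the threshold there was shared by all listed genes, so only the direction is read for these lists. Adjusted p-values given below with the recovered depth set no list gene apart from the other listed genes. PPP1R14A, an inhibitor of myosin phosphatase, averaged 56.8 ± 5.01 FPKM in siINHBA and 117 ± 8.48 FPKM in siNC (SD, n = 3 each). ACTC1, the cardiac actin, averaged 12.4 ± 1.23 FPKM in siINHBA and 26.3 ± 2.08 FPKM in siNC, and the skeletal actin ACTA1 had a log2 fold change of -1.22. Actin genes share most of their coding sequence, so their counts are uncertain. None of the 3 passed under TMM in edgeR (adjusted p 0.76 for PPP1R14A, 0.99 for ACTC1 and 0.67 for ACTA1), where PPP1R14A was at 0.05 and ACTC1 at 0.00 on the log2 scale.

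Of the adhesion plaque list, 7 of the 40 genes other than VCL were in the table. All 7 were lower, where 65.7% of all listed genes were. The tensin TNS1, which binds integrin tails and actin, stood at 15.1, 30.5 and 23.6 FPKM in siINHBA, against 65.4, 68.3 and 62.9 FPKM in siNC. Its siINHBA libraries kept the order seen in MYH9, library 1 lowest and library 2 highest. FHL1, a LIM protein, averaged 26.0 ± 1.28 FPKM in siINHBA and 54.2 ± 2.25 FPKM in siNC (SD, n = 3 each). The integrin subunit ITGB5 and the adaptor LIMS1 had log2 fold changes of -1.11 and -1.31. Under TMM 1 of the 7 passed as lower, TLN2 at -0.50, a second talin named after its value was seen, and FHL1 was at 0.02.

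Of the bundling and protrusion list, 3 of the 34 genes other than FSCN1 were in the table, 2 of them higher. MARCKSL1, an actin- and membrane-binding protein, stood at 254, 244 and 270 FPKM in siINHBA, against 98.8, 94.7 and 98.6 FPKM in siNC. It differed by 1.40 on the log2 scale (SE 0.10; adjusted p = 9.4e-07 in edgeR), beside 1.41 for FSCN1. EVL, which promotes the growth of actin filaments at their tips, averaged 47.5 ± 2.08 FPKM in siINHBA and 19.4 ± 0.878 FPKM in siNC (SD, n = 3 each; edgeR adjusted p = 2.3e-06). The formin DIAPH3 was lower, at -2.05 on the log2 scale. Under TMM DIAPH3 stayed lower, at -0.96 (adjusted p = 6.1e-05 in edgeR). MARCKSL1 and EVL passed as higher under TMM too. Of all listed genes 34.3% passed as higher with either scaling, so this says little about these 2.

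In the PDZ-LIM and cross-linking list LDB3, a further PDZ-LIM protein of the Z-disc, was the only gene in the table besides PDLIM3, with a log2 fold change of -2.04 from levels under 2 FPKM. Beside DES, the intermediate filament list had 3 of its 19 other genes in the table, all lower, where 65.7% of all listed genes were. NES, which encodes nestin, stood at 7.94, 13.9 and 13.6 FPKM in siINHBA, against 76.6, 75.6 and 74.4 FPKM in siNC, at -2.68 on the log2 scale (SE 0.20; adjusted p = 1.3e-06 in edgeR). KRT19 and the nuclear lamin LMNB1 were at -1.82 and -1.35, and LMNB1 did not pass under TMM (adjusted p = 0.085).

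TSPAN7, a tetraspanin, was the 1 listed gene of the TM4SF and tetraspanin list beside TM4SF1. In contrast to TM4SF1 it was lower, at 14.3 ± 1.00 FPKM in siINHBA and 50.5 ± 2.20 FPKM in siNC (SD, n = 3 each; edgeR adjusted p = 6.1e-07). FOS, an early target of SRF, was the 1 listed gene of the SRF and YAP list, at -1.26 on the log2 scale and not past the threshold under TMM (adjusted p = 0.41).

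**Figure D5:**
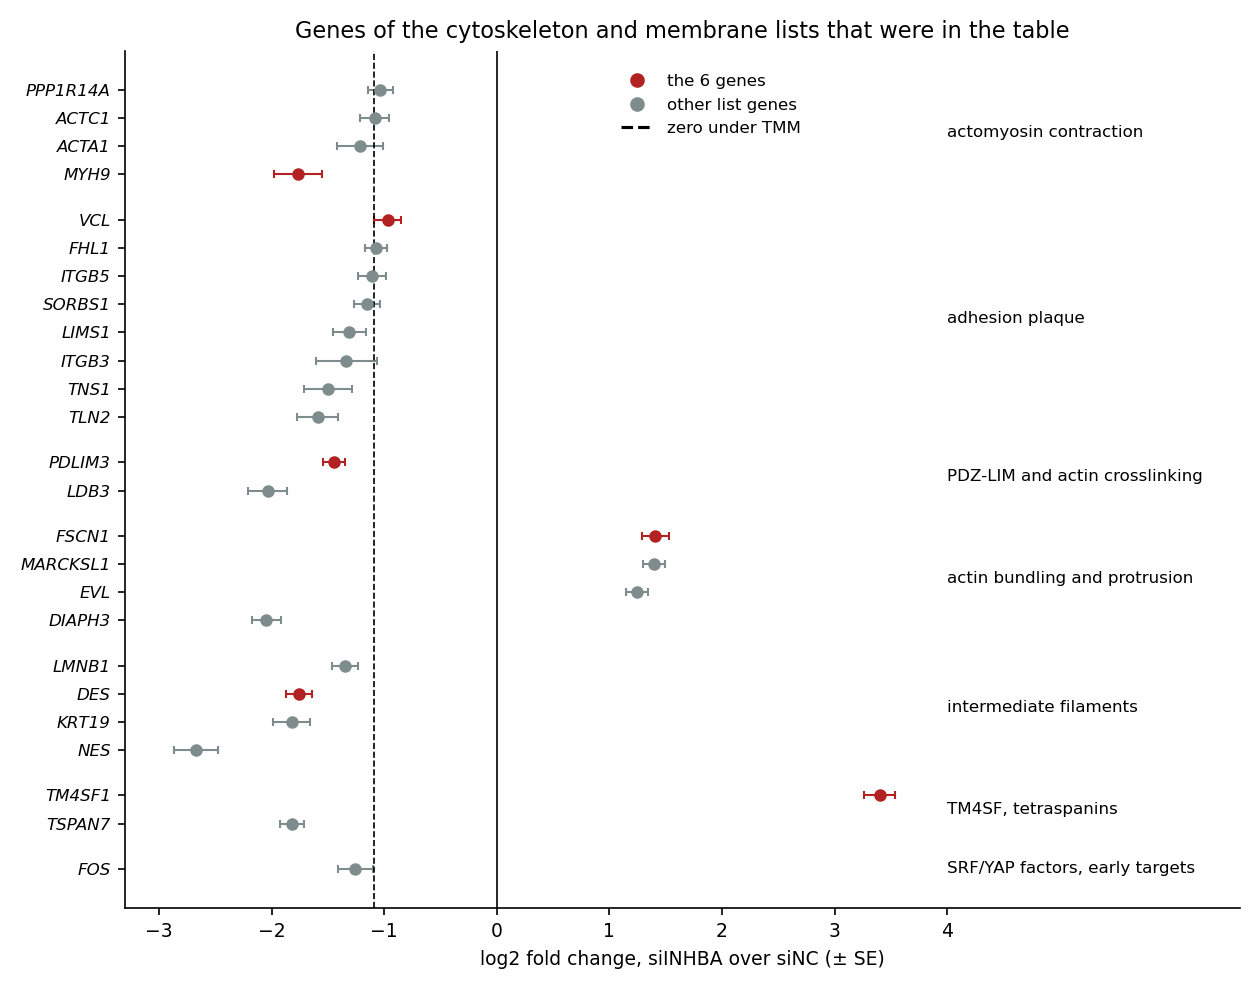
Log2 fold change of siINHBA over siNC (x axis, ± SE) for the 6 genes (red) and the 19 other genes of the 7 lists that were in the table (grey), grouped by list. TM4SF1, FSCN1, MARCKSL1 and EVL lie above 0; VCL, PPP1R14A, ACTC1 and FHL1 lie between the solid zero and the dashed line (zero under TMM), so they turn to just above 0 under TMM.

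The annotation columns of the table placed the 6 genes differently. MYH9, VCL and FSCN1 shared the Gene Ontology term for actin filament binding. It held 9 other listed genes, all 9 lower with the recovered depth, where 65.7% of all listed genes were lower. Under TMM 3 of the 9 passed as lower and 0 as higher, where 22.5% and 34.3% of all listed genes did so, and 2 of the 9 turned positive. FSCN1 also carried the terms for cell migration and lamellipodium. Their 9 and 5 other listed genes were all lower by the authors' log2 fold change, and were not counted under TMM. MYH9 and VCL shared the KEGG pathway on regulation of the actin cytoskeleton, with 22 lower and 5 higher genes among 27 others. Under TMM 7 of the 27 passed as lower and 5 as higher, the lower share being near that of all listed genes. These terms and the length classes were chosen after the data were seen, and the genes of the terms were not matched for transcript length. PDLIM3 carried no KEGG pathway, and TM4SF1 was placed under taurine and glutathione metabolism through a match to a gamma-glutamyltranspeptidase entry, although its protein family was given as L6 membrane protein.

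Genes with the most similar profiles were found by the root mean square difference of log2(FPKM + 1), centred on each gene's own mean, over the 6 libraries and among 1093 other genes with a symbol and a mean of at least 1 FPKM. Most of any profile is the difference between siINHBA and siNC. The added 1 FPKM shrinks the differences of scarce genes, so a small distance can stand for unlike fold changes, as the values below show. MYH9 was nearest to MXRA5, ANTXR1 and PTPN14, at 0.076, 0.10 and 0.13, and all 3 shared its low siINHBA library 1. MXRA5 stood at 3.94, 8.58 and 7.20 FPKM in siINHBA, against 22.6, 24.2 and 20.3 FPKM in siNC. ANTXR1, which encodes a collagen-binding membrane protein that is tied to actin, had a log2 fold change of -2.15, against -1.77 for MYH9.

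VCL was nearest to SMARCC1, FOXO3 and DOCK4, at 0.040 to 0.052. Of these, SMARCC1 had a log2 fold change of -0.99 and FOXO3 of -1.13, beside -0.97 for VCL, while the scarce DOCK4 had -1.63. Under TMM SMARCC1 was at 0.10, FOXO3 at -0.04 and DOCK4 at -0.55, beside 0.12 for VCL. PDLIM3 was nearest to SDHB, WNT10B and NREP, at 0.038 to 0.047. SDHB and NREP had log2 fold changes of -1.43 and -1.48, beside -1.44 for PDLIM3, and the scarcer WNT10B had -1.75. DES was nearest to TMEM86A, LDLRAD3 and MYO19, at 0.032 to 0.078. All 3 are scarcer than DES and had log2 fold changes of -2.11, -1.90 and -2.36, against -1.76 for DES. Within a difference of 0.2 lay 375 genes for VCL, 221 for PDLIM3, 99 for FSCN1, 98 for DES and 18 for MYH9, so the nearest genes of VCL and PDLIM3 stand in dense company.

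FSCN1 was nearest to NFKB2, a subunit of NF-kB, at 0.037, followed by VPS37C at 0.045 and CDKN1A at 0.053. NFKB2 averaged 46.0 ± 7.39 FPKM in siINHBA and 16.3 ± 0.356 FPKM in siNC (SD, n = 3 each). TM4SF1 had 1 gene within 0.2, the inducible NF-kB regulator NFKBIZ, at 0.19. NFKBIZ averaged 33.9 ± 0.725 FPKM in siINHBA and 2.87 ± 0.217 FPKM in siNC (SD, n = 3 each). The protease inhibitor SLPI and the RNase ZC3H12A followed at 0.247 and 0.351. Log2 fold changes were 3.65 for NFKBIZ, 4.42 for SLPI and 3.41 for ZC3H12A, beside 3.40 for TM4SF1. For NFKBIZ siINHBA library 1 was the lowest of its group, whereas for TM4SF1 it was the highest.

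Among the members, PDLIM3 and DES were the most alike at 0.18, then MYH9 and DES at 0.23. FSCN1 and TM4SF1, although both higher, were 1.02 apart.

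In the RefSeq annotation of the ARS-UI_Ramb_v3.0 sheep assembly, used here for names and neighbours only, ACTB lies beside FSCN1, and TM4SF4 and TM4SF18 lie on either side of TM4SF1. None of these was in the table. PLAU and ADK near VCL, and SPEG beside DES, were listed, with log2 fold changes of 1.43 for PLAU, -1.40 for ADK and -1.17 for SPEG. ADK and SPEG did not pass under TMM in edgeR (adjusted p 0.11 and 0.75). LOC101121414 near MYH9 was listed too and was higher, at 0.638 ± 0.0152 FPKM in siINHBA and 0.112 ± 0.0739 FPKM in siNC (SD, n = 3 each). Reads of MYH9 may include some of LOC114114032, which overlaps it and was not in the table.

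Some markers of other cell types were also in the table, and the levels given here rest on the recovered depth. In the smooth muscle and pericyte list 2 of 10 genes were in the table, DES itself and PDGFRB, and their summed level was 16.1 to 21.6 FPKM in siINHBA and 63.0 to 65.9 FPKM in siNC. The defining markers ACTA2, MYH11, TAGLN and CNN1 carry no value here. The endothelial genes VWF and KDR, 2 of 8, summed to 0.117 to 0.213 FPKM in siINHBA and 0.569 to 0.679 FPKM in siNC, levels near 0. The other endothelial markers, among them PECAM1 and CDH5, carry no value here. The leukocyte gene CSF1R, 1 of 8, stood at 0.176 to 0.231 FPKM in siINHBA and 0.422 to 0.462 FPKM in siNC. Under TMM PDGFRB and KDR still passed as lower in edgeR, while VWF (-0.29, adjusted p = 0.44) and CSF1R (-0.02, adjusted p = 0.95) did not.

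KRT19, UPK1B and LRRN4, 3 of 10 epithelial and mesothelial genes, summed to 13.7 to 14.2 FPKM in siINHBA and 37.5 to 39.0 FPKM in siNC, and 0 of 8 theca and stroma genes were in the table. UPK1B did not pass under TMM (-0.02, edgeR adjusted p = 0.95). Of 11 granulosa genes 5 were in the table, and they went both ways. CYP11A1, NR5A1, INHA and the siRNA target INHBA were lower, and HSD17B1 was higher, at 2.78 ± 0.372 FPKM in siINHBA and 1.01 ± 0.189 FPKM in siNC (SD, n = 3 each). NR5A1 did not pass under TMM (-0.20, edgeR adjusted p = 0.33). The 5 genes summed to 65.5 to 82.2 FPKM in siINHBA and 194 to 208 FPKM in siNC, most of it CYP11A1, which averaged 51.6 ± 6.45 FPKM in siINHBA and 142 ± 5.43 FPKM in siNC. The defining granulosa markers FSHR, CYP19A1, AMH and FOXL2 carry no value here, so the labelled cell type could be checked only in part. The part of these cell types in the levels of the 6 genes was not tested.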

How the data were processed

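Poly(A) RNA was captured with oligo(dT) beads and copied with random hexamers, per the labels' protocols. Which aligner, counter, genome build and test the authors used is not given in the sources used here. Per the file headers, each gene of the deposited sheet has raw read counts and FPKM for the 6 libraries. The authors' false discovery rate, a corrected p-value, and their log2 fold change stand beside them. Its highest false discovery rate was 0.0090, so it holds called genes only. Incomplete lines (4) were dropped, and 4 further sheets that repeat its genes were not used.

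The test across genes was the quasi-likelihood F test of edgeR 4.0.16 under R 4.3.3 (filterByExpr at a minimum count of 10, passed by all 1620 genes, Benjamini-Hochberg, threshold 0.05). Library sizes were the depth recovered as the median count-to-FPKM ratio of the 702 best counted genes (more than 200 in each library). The SE is the absolute log2 fold change over the square root of F. The code was tested on simulated counts.

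Alternatives were TMM, DESeq2 1.42.0 with either scaling, no filter, limma 3.58.1 on log2(FPKM + 1) or log2(FPKM + 0.1), a 5 FPKM filter, a replicate block, the authors' values and leaving out each library. The 6 genes, the lists and the scaling were chosen with earlier results of these data known. Named genes are INHBA, the 6 genes, the 4 most abundant listed genes of each list, the marker genes and the 3 nearest profiles of each gene; TLN2 and neighbouring genes were added after their values were seen. No pair of replicates was alike within counting error: chi-square averaged 17.6 to 47.4 per gene between siINHBA libraries and 5.33 to 8.75 between siNC libraries. Intervals for depth were not computed, and precision is given by the spread of 3 libraries per group. Sequences were not used here.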

Additional observations from a re-analysis of the deposited data

How the results depend on the processing

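The scaling was the choice that moved the results. With TMM over the listed genes 919 of 1620 genes passed, 364 of them lower, and with DESeq2's own size factors 914 and 359, in place of 1620 and 1065. The median log2 fold change over the 6 genes was then -0.12 under both, in place of -1.21, and 6 other list genes passed as lower under each in place of 17. VCL turned positive, at 0.12 with TMM and 0.11 with DESeq2, as did PPP1R14A (0.051 and 0.052), FHL1 (0.017 and 0.0165) and ACTC1 (0.0023 and 0.00062). Under TMM MYH9, PDLIM3 and DES were at -0.68, -0.35 and -0.67, and FSCN1 and TM4SF1 at 2.50 and 4.49. Both settings centre a table of called genes on its typical gene, which by construction removes a shift that most of them share. The 5 FPKM filter in limma gave 611 passing genes, 411 of them lower, and 11 lower list genes, because fewer genes were tested.

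In the 7 other settings each of the 6 genes moved by less than the spread between replicates. With each library left out in turn the passing genes numbered 1618 to 1620, 1063 to 1065 of them lower; 4 of the 6 genes stayed lower, 17 list genes passed as lower and 2 as higher, INHBA lay between -1.64 and -1.38, and the median of the 6 between -1.24 and -1.19. MYH9 ranged from -1.99 to -1.54. Every listed gene had been called by the authors from these libraries, so such counts had little room to move. No label ties libraries of equal number together. Deviations of same-numbered libraries correlated at 0.049, 0.20 and -0.019 across genes, and with a replicate block 1620 genes passed, 1065 lower, with the median of the 6 at -1.21. Groups of 3 leave the SD of each group imprecise.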
